A study of Rattus norvegicus with 14 samples.

Results

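Cytochrome P450 genes were examined in RNA-seq counts from the rat thyroid line PCCL3. The members were all genes whose symbol begins with Cyp followed by a family number, a subfamily letter and a gene number, leaving out Cyp51, Cyp26a1 and Cyp26b1. This gave 69 members of 16816 genes in the table. A member is described when every library of at least 1 group held 10 or more counts, which was the case for 16 members. The PPFP cells stably express a Myc-tagged PAX8-PPARG fusion protein, and the EV cells carry the empty vector. Each line received 1 μM pioglitazone, a PPARG agonist, or its DMSO vehicle for 16 hours, giving 4 groups (EV and PPFP cells, each without and with pioglitazone) of 3 libraries. All groups grew with serum, thyrotropin, insulin, apo-transferrin and hydrocortisone. The labels do not say whether a line is a single clone, so the fusion protein and other differences between the lines cannot be told apart.

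P450 enzymes are heme proteins that insert an oxygen atom from molecular oxygen into a substrate. Those of the endoplasmic reticulum take their electrons from P450 reductase (Por) or cytochrome b5, and those of mitochondria take them from ferredoxin and ferredoxin reductase. Members of families 1 to 3 oxidize drugs, pollutants, steroids and polyunsaturated fatty acids. Family 4 hydroxylates fatty acids and eicosanoids near the methyl end of the chain, and in liver the Cyp4a subfamily is a classical target of PPARA. Other members make steroid hormones, bile acids and oxysterols, or hydroxylate vitamin D. Most xenobiotic members are liver enzymes, and transcription factors such as AHR, PXR (Nr1i2), CAR (Nr1i3) and HNF4A control many of them. The comparisons asked how the fusion protein and its ligand act on gene expression in thyroid cells.

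RefSeq promoter sequences of the GRCr8 build, which is not the build of the counts, matched 14 of the 16 described members. The 250 bases before the annotated start are given for 4 members that differed between the cell lines. Cyp4a8, at chr5:133970227-133970476 (minus strand), and Cyp2d1, at chr7:115793431-115793680 (minus strand), are shown as the largest fitted increases in PPFP cells. Cyp2r1, at chr1:178232175-178232424 (minus strand), and Cyp27a1, at chr9:83713282-83713531 (plus strand), are shown because they hold AGGTCA, the half-site read by PPARG-RXR and other nuclear receptors. Capitals mark AGGTCA or GCGTG, the core read by AHR, on either strand, so that TGACCT and CACGC are the same motifs on the other strand.
Cyp4a8: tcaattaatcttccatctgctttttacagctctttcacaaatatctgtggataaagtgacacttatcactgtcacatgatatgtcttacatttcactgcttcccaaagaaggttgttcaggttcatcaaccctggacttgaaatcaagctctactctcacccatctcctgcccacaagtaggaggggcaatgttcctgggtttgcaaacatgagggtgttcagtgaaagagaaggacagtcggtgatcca
Cyp2d1: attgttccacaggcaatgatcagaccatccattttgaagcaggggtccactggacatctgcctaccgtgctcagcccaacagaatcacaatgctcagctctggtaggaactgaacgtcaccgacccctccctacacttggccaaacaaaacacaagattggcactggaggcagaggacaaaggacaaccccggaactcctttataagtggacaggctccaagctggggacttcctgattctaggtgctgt
Cyp2r1: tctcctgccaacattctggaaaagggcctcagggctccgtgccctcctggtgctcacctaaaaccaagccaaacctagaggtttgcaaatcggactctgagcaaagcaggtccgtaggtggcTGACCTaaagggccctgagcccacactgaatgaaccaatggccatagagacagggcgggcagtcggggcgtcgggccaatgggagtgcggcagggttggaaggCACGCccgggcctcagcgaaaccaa
Cyp27a1: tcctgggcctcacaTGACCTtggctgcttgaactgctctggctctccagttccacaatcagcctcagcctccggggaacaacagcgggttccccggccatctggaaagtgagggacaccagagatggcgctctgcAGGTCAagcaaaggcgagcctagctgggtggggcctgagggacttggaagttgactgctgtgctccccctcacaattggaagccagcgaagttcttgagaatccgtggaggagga
AGGTCA lay in the windows of 4 of the 14 members (Cyp2r1, Cyp2u1, Cyp11a1 and Cyp27a1) and in 14.1% of the 33469 RefSeq windows of this length. GCGTG lay in those of 5 members (Cyp2r1, Cyp2u1, Cyp46a1, Cyp4f5 and Cyp20a1) and in 25.9% of all windows. The full repeat AGGTCANAGGTCA, which contains the half-site 2 times, was in none of the 14 and in 0.0508% of all windows. A match describes the letters only. Whether PPFP binds near these genes was not analysed here, because the peaks are in rn4 coordinates and no rn4 annotation was used.

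The libraries held between 23724703 and 35240176 counts on genes. P450 genes made up 0.0218% to 0.0272% of these. The lines separated on the leading principal component, with 82.2% of the variance. The 7 thyroid markers read here (Tg, Slc5a5, Tshr, Pax8, Nkx2-1, Foxe1 and Duox2) each exceeded 3 counts in every group, and their summed level was 9772 to 13430 CPM without and 10430 to 14070 CPM with pioglitazone in the EV libraries, and 13480 to 14130 CPM without and 9994 to 10250 CPM with it in the PPFP ones, most of it from Tg. Between PPFP cells with and without pioglitazone, 5 of the 7 passed at any fold change, against 14.8% of all genes, Duox2 higher and Tg, Slc5a5, Pax8 and Nkx2-1 lower. Single markers differed between the lines. In each treatment 3 of the 7 were called (adjusted p under 0.05 and more than 2-fold), Foxe1 and Slc5a5 lower and Duox2 higher in PPFP cells, while 14.6% of all genes tested were called without pioglitazone and 19.7% with it. Without pioglitazone Foxe1 was at 873 ± 30.4 CPM in EV and 132 ± 16.0 CPM in PPFP cells, Slc5a5 at 1122 ± 39.9 and 339 ± 31.6 CPM, and Duox2 at 19.2 ± 2.32 and 88.7 ± 4.75 CPM. CPM are counts scaled to the TMM-adjusted size of each library, and since they are not per length they are not compared between genes. Of 7 hepatocyte markers in the table, 4 to 6 had at most 3 counts in every library of a group. Their summed level was at most 0.302 CPM in the EV libraries and 1.33 to 2.65 CPM in the PPFP ones, mostly from Serpina1. Of 5 adipocyte markers Lep and Retn were at 0 counts in every library, and the other 3, Adipoq, Plin1 and Cidec, were called higher in PPFP cells without pioglitazone. There Plin1 was at 0.0561 ± 0.0704 CPM in EV and 6.44 ± 0.534 CPM in PPFP cells, Cidec at 0.0560 ± 0.0196 and 8.06 ± 0.176 CPM, and Adipoq at 2.13 ± 0.939 and 4.54 ± 0.177 CPM. Plin1 and Cidec were also called higher in the pioglitazone response of PPFP cells, while Adipoq was lower with pioglitazone there, at 2.40 ± 0.545 CPM (log2 fold change -0.91, adjusted p = 0.0241), and was not called between the lines with it. The list summed to 0.629 to 3.14 CPM in EV libraries and, in PPFP libraries, to 18.8 to 19.5 CPM without and 53.2 to 73.5 CPM with pioglitazone. Leukocyte markers summed to 0.537 to 0.675 CPM without and 0.542 to 1.05 CPM with pioglitazone in the EV libraries. In the PPFP ones they summed to 0.883 to 1.27 CPM without and 1.135 to 1.49 CPM with it. Cd68, the 1 of these tested, was higher in PPFP cells in both treatments. It passed at any fold change without pioglitazone (log2 fold change 0.86), as 45.2% of all genes did, and was called with it (1.18). The part of these markers in the results below was not tested.

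Most P450 genes had few or no counts in these cells. Of the 53 members that are not described, 23 had no count in any library, 41 had at most 3 counts in every library, and the highest count of all was 22. Family 1, the AHR-induced Cyp1a1, Cyp1a2 and Cyp1b1, had no described member. Grouped by role, described members were 6 of 35 in families 2 and 3 without Cyp2r1, and 5 of 15 in family 4. A further 2 of 6 were in cholesterol and bile acid metabolism, 1 of 7 in steroid synthesis and 1 of 2, Cyp2r1, in vitamin D metabolism. The last was Cyp20a1, an enzyme without a known substrate. Cyp7a1 and Cyp8b1, the hepatic bile acid enzymes, were at 0 counts in all 12 libraries. A count of 0 allows up to 3 counts, or 0.0813 to 0.129 CPM depending on the library, and covers counting error only.

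**Figure D1:**
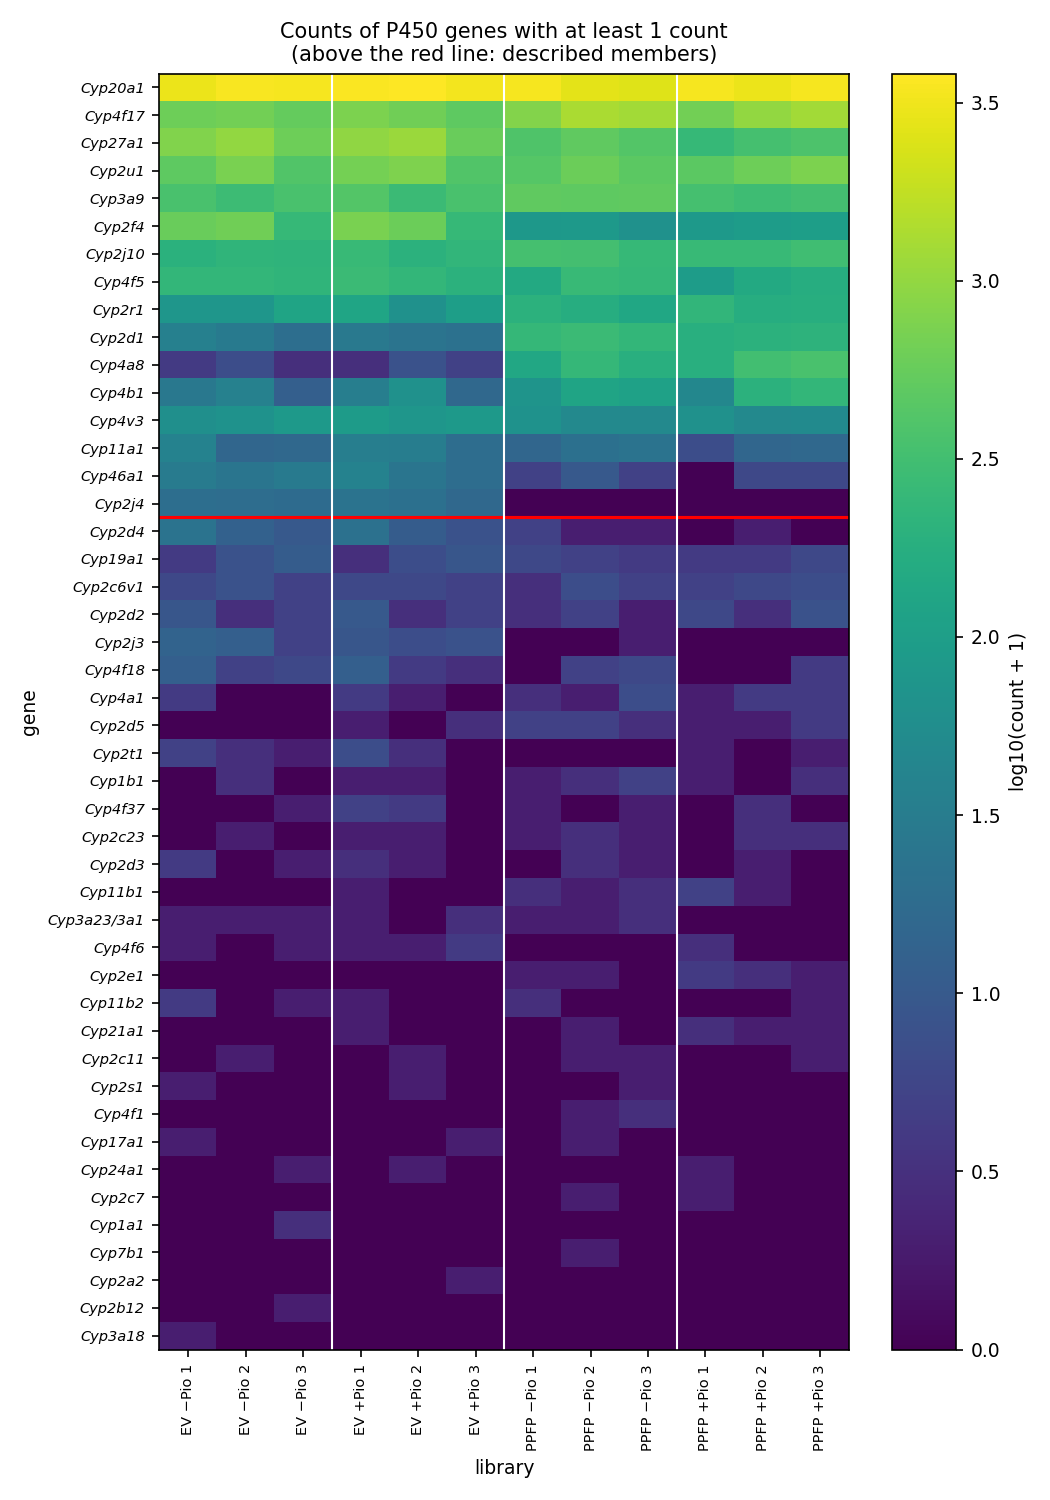
Counts of the 46 P450 genes with at least 1 count, as log10(count + 1) in colour, with genes in rows and the 12 libraries in columns. The 16 described members lie above the red line, and no gene below it exceeds 22 counts.

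Just inside the limit of 10 counts, Cyp2j4 had 17 to 19 counts in the EV libraries without pioglitazone, 15 to 22 with it and 0 in all 6 PPFP libraries. Cyp46a1 had 18 to 38 counts in EV cells and 0 to 9 in PPFP cells, and Cyp11a1 6 to 38 counts over all libraries. Just outside it, Cyp2d4 had 22, 12 and 9 counts in EV cells without pioglitazone and 4, 1 and 1 in PPFP cells without it. Cyp2j3 had 13, 11 and 4 counts against 0, 0 and 1. Of the described members, 12 passed the limit in all 4 groups. The other 4 passed in fewer groups: Cyp2j4 and Cyp46a1 in EV cells alone, Cyp4a8 in PPFP cells alone, and Cyp11a1 in every group but PPFP cells with pioglitazone. A member that passed only in the groups where it is high had to differ between the lines, so the counts of calls below describe the members and support no statement about P450 genes as a class.

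**Figure D2:**
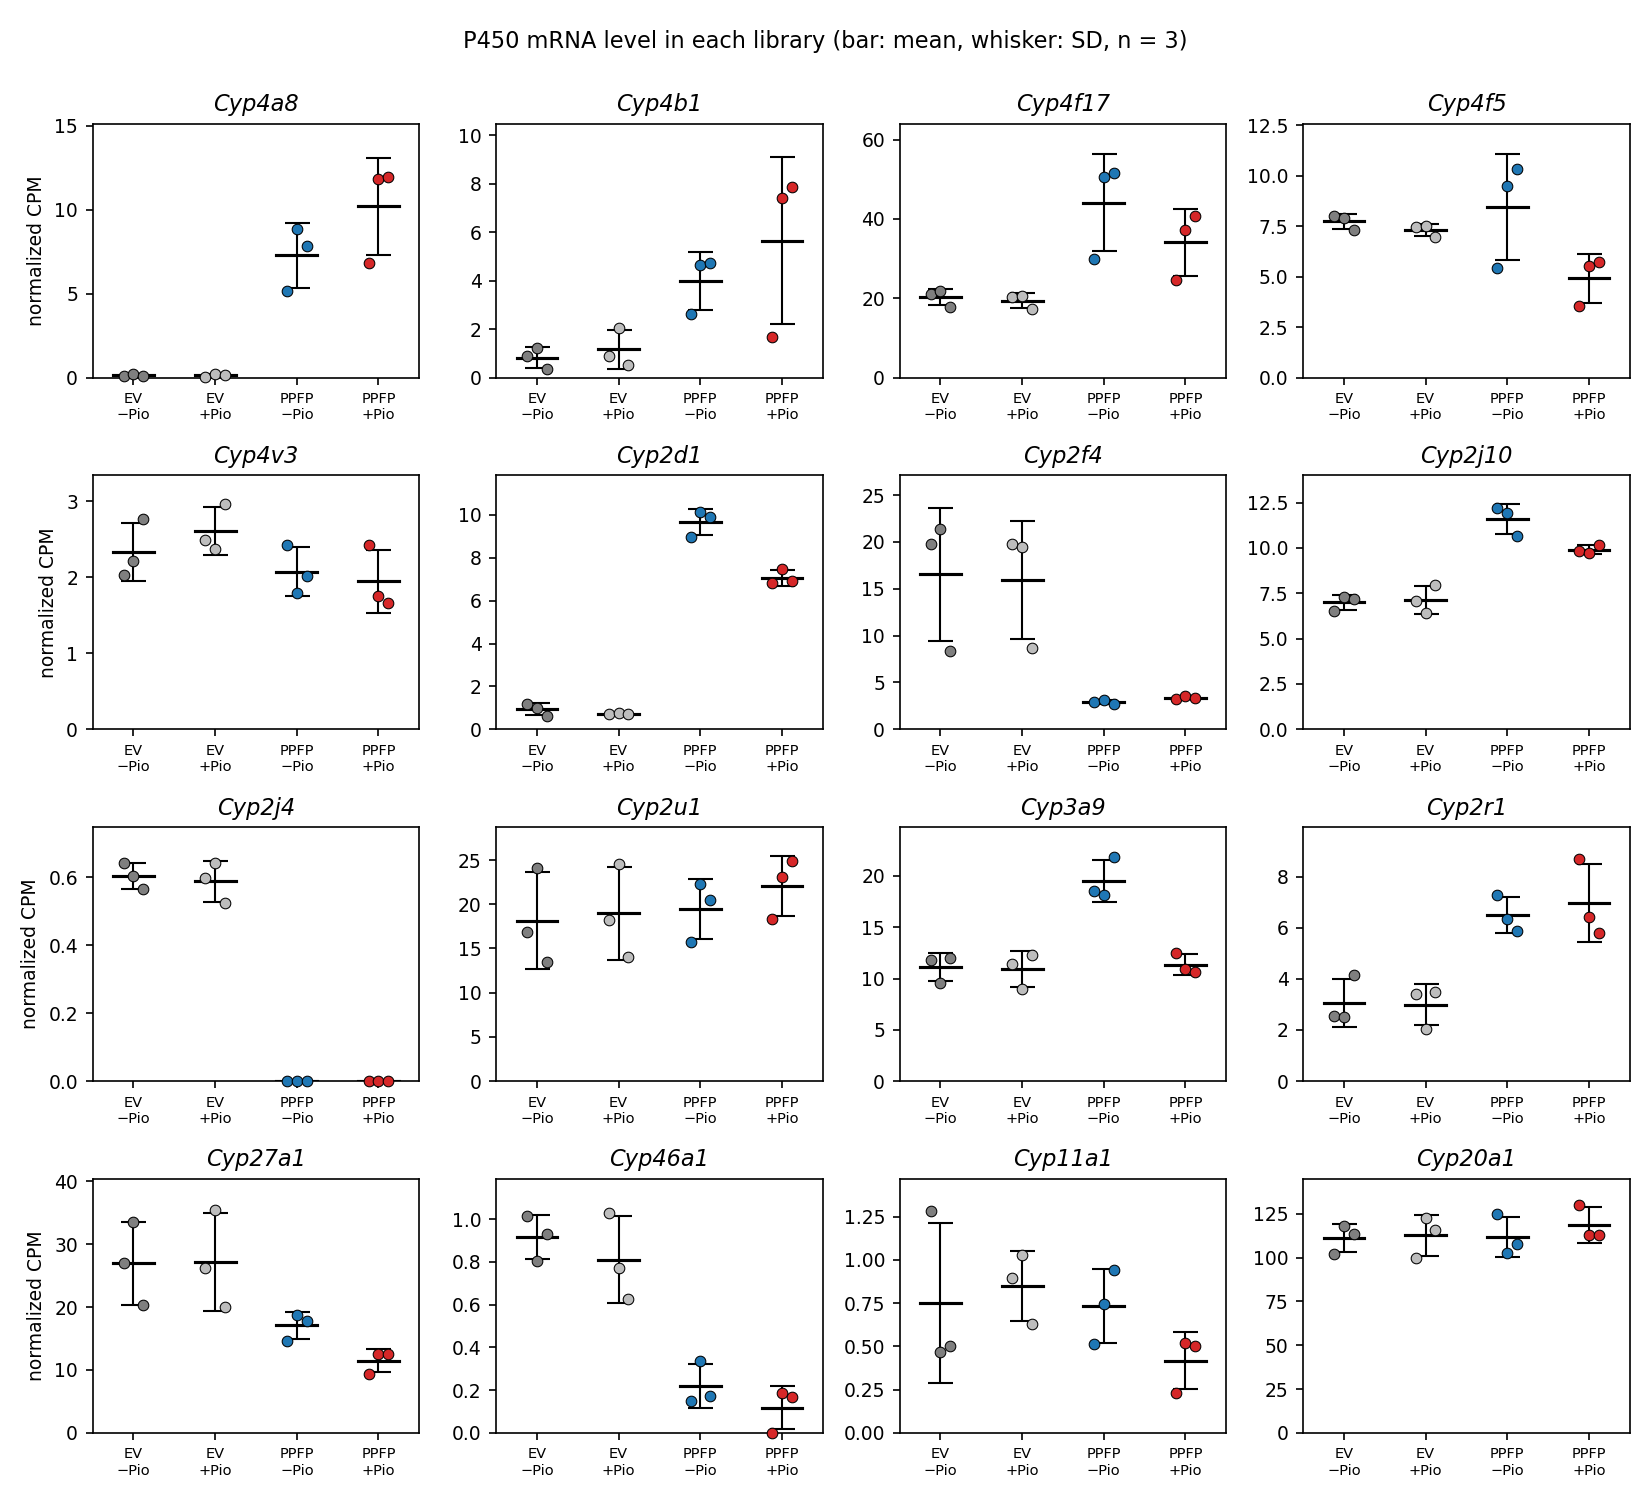
Level of each described P450 gene in normalized CPM (linear axis from 0) in the 3 libraries of each group, with the mean as a bar and the SD as whiskers. Cyp4a8 and Cyp2d1 are low in EV cells and raised in PPFP cells, Cyp2j4 is at 0 in PPFP cells, and Cyp20a1 is at a similar level in all 4 groups.

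Single P450 genes differed between the lines in both directions. The summed level of the members was 231 ± 21.7 CPM (SD, n = 3) in EV cells and 267 ± 12.8 in PPFP cells without pioglitazone, of which Cyp20a1 alone gave 111 and 112 CPM. In such bulk samples fewer cells that express a gene and less RNA per cell cannot be told apart. Without pioglitazone, 8 of the 16 members were called (adjusted p under 0.05 and more than 2-fold), while 14.6% of the 10264 genes tested were. Cyp4a8, Cyp2d1, Cyp4b1, Cyp4f17 and Cyp2r1 were higher in PPFP cells, and Cyp2j4, Cyp2f4 and Cyp46a1 were lower. Over all genes, 7.27% were called higher and 7.31% lower. Among the 12 members that passed the limit in all groups, 4 were called higher and 1 lower. At any fold change 11 of 16 members had an adjusted p under 0.05, against 45.2% of genes. In 11 members the PPFP and EV libraries did not overlap, against 56.5% of genes. The median log2 fold change was 0.11 for the members and 0.00 for all genes, and the median of its absolute value was 0.95 and 0.33. For the 12 members that passed the limit in all groups these medians were 0.43 and 0.77.

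In family 4, Cyp4a8, a fatty acid omega-hydroxylase, was at 0.101, 0.201 and 0.0666 CPM in the EV libraries and at 5.15, 8.88 and 7.84 CPM in the PPFP libraries. The EV values stand on 11 counts in total, and the groups did not overlap. Its log2 fold change was 5.84 ± 0.39 (standard error, SE, adjusted p = 3.02e-05). Cyp4b1, which hydroxylates medium-chain fatty acids and activates some plant toxins, was at 0.878, 1.21 and 0.367 CPM in the EV libraries and at 2.61, 4.63 and 4.71 CPM in the PPFP ones. Every PPFP library was above every EV library, and the log2 fold change was 2.28 ± 0.42 (SE, adjusted p = 0.00333). Cyp4f17 belongs to the Cyp4f subfamily, known for the hydroxylation of leukotrienes and arachidonic acid. It was at 21.1, 21.8 and 17.9 CPM in the EV libraries and at 29.9, 50.7 and 51.6 CPM in the PPFP ones, the first PPFP library being the lowest of its group but above EV cells. The log2 fold change was 1.12 ± 0.21 (SE, adjusted p = 0.00376). Cyp4f5, of the same subfamily, was at 7.74 ± 0.386 CPM in the EV libraries and 8.44 ± 2.63 CPM in the PPFP ones, where the libraries ranged from 5.44 to 10.4 CPM on both sides of the EV values (adjusted p = 0.70). Cyp4v3, the rat counterpart of a fatty acid hydroxylase of the human retina, was at 2.33 ± 0.384 and 2.08 ± 0.323 CPM (adjusted p = 0.56). Cyp4a8, Cyp4f17 and Cyp4f5 also appear in a gene list that the study drew from these same libraries, so that list is no independent evidence of their direction.

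In families 2 and 3, Cyp2d1, the rat debrisoquine hydroxylase, was at 1.18, 0.973 and 0.633 CPM in the EV libraries and at 8.98, 10.2 and 9.89 CPM in the PPFP ones. The groups lay far apart, with a log2 fold change of 3.38 ± 0.23 (SE, adjusted p = 3.14e-05). Cyp2f4, an enzyme of the lung that oxidizes naphthalene, went the other way, from 19.8, 21.4 and 8.40 CPM in the EV libraries to 2.94, 3.13 and 2.74 CPM in the PPFP ones. The third EV library was the lowest EV library and still above every PPFP library. Its log2 fold change was -2.49 ± 0.35 (SE, adjusted p = 0.00097), and -2.80 without that library. Cyp2j4, a member of the arachidonic acid epoxygenases of the Cyp2j subfamily, was at 0.642, 0.604 and 0.566 CPM in the EV libraries and at 0 in the PPFP libraries. Taking 3 counts per library as the floor, it was at least 5.17-fold lower in PPFP cells (adjusted p = 0.00112). Cyp2j10, of the same subfamily, was higher in PPFP cells at less than 2-fold, with 7.0 ± 0.423 CPM against 11.6 ± 0.827 (log2 fold change 0.73, adjusted p = 0.00237). Cyp3a9, a steroid hydroxylase of the Cyp3a subfamily, was at 11.1 ± 1.4 CPM in EV cells and 19.5 ± 2.05 CPM in the PPFP ones, also without overlap (log2 fold change 0.81, adjusted p = 0.00236). Cyp2u1, a long-chain fatty acid hydroxylase, was at 18.1 ± 5.46 and 19.5 ± 3.40 CPM, within the spread of the libraries (adjusted p = 0.74).

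Among the sterol and vitamin D enzymes, Cyp2r1, a vitamin D 25-hydroxylase, was at 2.53, 2.52 and 4.13 CPM in the EV libraries and at 7.28, 6.34 and 5.87 CPM in the PPFP ones. It was higher by a log2 fold change of 1.09 ± 0.23 (SE, adjusted p = 0.00672), close to the 2-fold limit. Without the first or the second EV library the value was 0.97 and 0.96, under that limit. Cyp46a1, the cholesterol 24-hydroxylase of neurons, was at 1.01, 0.805 and 0.933 CPM in the EV libraries and at 0.147, 0.336 and 0.171 CPM in the PPFP ones. The PPFP values stand on 4 to 9 counts a library, and the log2 fold change was -2.04 ± 0.37 (SE, adjusted p = 0.00319). Cyp27a1, the mitochondrial sterol 27-hydroxylase, was at 27.1, 33.5 and 20.3 CPM in the EV libraries and at 14.7, 18.8 and 17.8 CPM in the PPFP ones. The groups did not overlap, and the log2 fold change was -0.66 ± 0.19 (SE, adjusted p = 0.0249). This passed the adjusted p limit in 2 of the 6 fits that each left out 1 library. Cyp11a1, the side-chain cleavage enzyme of steroid synthesis, was at 0.751 ± 0.461 and 0.734 ± 0.214 CPM (adjusted p = 0.95). Cyp20a1 was at 111 ± 8.24 and 112 ± 11.5 CPM (adjusted p = 0.96). Cyp2d, Cyp2j, Cyp4a and Cyp4f genes have closely similar copies in the rat genome, and reads that fit several copies could have been lost or assigned to another copy, so the values of single genes in these subfamilies are uncertain.

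With pioglitazone in both lines, 8 of the 16 members were again called, while 19.7% of 10291 genes were (9.3% higher, 10.4% lower). Of these, 7 were also called without pioglitazone: Cyp4a8, Cyp2d1, Cyp4b1, Cyp2r1, Cyp2j4, Cyp2f4 and Cyp46a1. Cyp27a1 was called here and not there, and Cyp4f17 there and not here. At any fold change 10 members had an adjusted p under 0.05, against 52.7% of genes, and in 11 members the groups did not overlap, against 62.9%. Cyp4a8 was at 0.0542, 0.225 and 0.140 CPM in the EV libraries and at 6.85, 11.8 and 12.0 CPM in the PPFP ones (log2 fold change 6.21 ± 0.43, adjusted p = 3.6e-05). Cyp2d1 was at 0.732, 0.739 and 0.734 CPM against 6.82, 7.50 and 6.91 CPM, a log2 fold change of 3.28 ± 0.16 (SE, adjusted p = 9.18e-06). For both genes every PPFP library was above every EV library. Cyp2f4 was at 19.7, 19.4 and 8.63 CPM in the EV libraries and at 3.26, 3.51 and 3.34 CPM in the PPFP ones, so the third EV library was again the lowest EV library (log2 fold change -2.22, adjusted p = 0.000921). Cyp2j4 was at 0.597, 0.643 and 0.524 CPM and at 0 in PPFP cells, at least 5.41-fold lower (adjusted p = 0.000851). Cyp46a1 was at 1.03, 0.771 and 0.629 CPM against 0, 0.187 and 0.167 CPM (log2 fold change -2.71 ± 0.60, adjusted p = 0.00723).

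Cyp4b1 varied widely between libraries under pioglitazone. It was at 0.895, 2.06 and 0.524 CPM in the EV libraries and at 1.67, 7.42 and 7.84 CPM in the PPFP ones, so that the first PPFP library lay below the second EV library. The log2 fold change was 2.31 ± 0.67 (SE, adjusted p = 0.023), and the call was lost without the first or the third EV library or the second or the third PPFP library, with an adjusted p of up to 0.0889. Without the second EV library the value rose to 2.98. Cyp2r1 was at 3.42, 2.06 and 3.49 CPM against 8.71, 6.41 and 5.81 CPM (log2 fold change 1.23, adjusted p = 0.00575). Cyp27a1 was at 26.3, 35.4 and 19.98 CPM against 9.39, 12.5 and 12.6 CPM. Its log2 fold change was -1.22 ± 0.22 (SE, adjusted p = 0.00294), and -1.0 without the second EV library, at the 2-fold limit. Cyp4f17 was at 19.4 ± 1.87 CPM against 34.2 ± 8.43 CPM, a log2 fold change of 0.84 (adjusted p = 0.00878), or 1.03 without the first PPFP library. Cyp2j10 was at 7.14 ± 0.788 and 9.91 ± 0.240 CPM (log2 fold change 0.49, adjusted p = 0.019). The adjusted p was above 0.05 with the replicate block (0.0577), with scaling by library size alone (0.0593) and without the first EV library or the second or the third PPFP library (up to 0.0818). Cyp11a1 was at 0.851 ± 0.203 and 0.417 ± 0.164 CPM, with a log2 fold change of -1.0 and an adjusted p of 0.0521, or -1.19 with 0.0316 without the third EV library. Cyp4f5 was at 7.31 ± 0.311 and 4.92 ± 1.21 CPM (adjusted p = 0.0555), and Cyp3a9 at 10.9 ± 1.76 and 11.4 ± 1.02 CPM (adjusted p = 0.72).

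**Figure D3:**
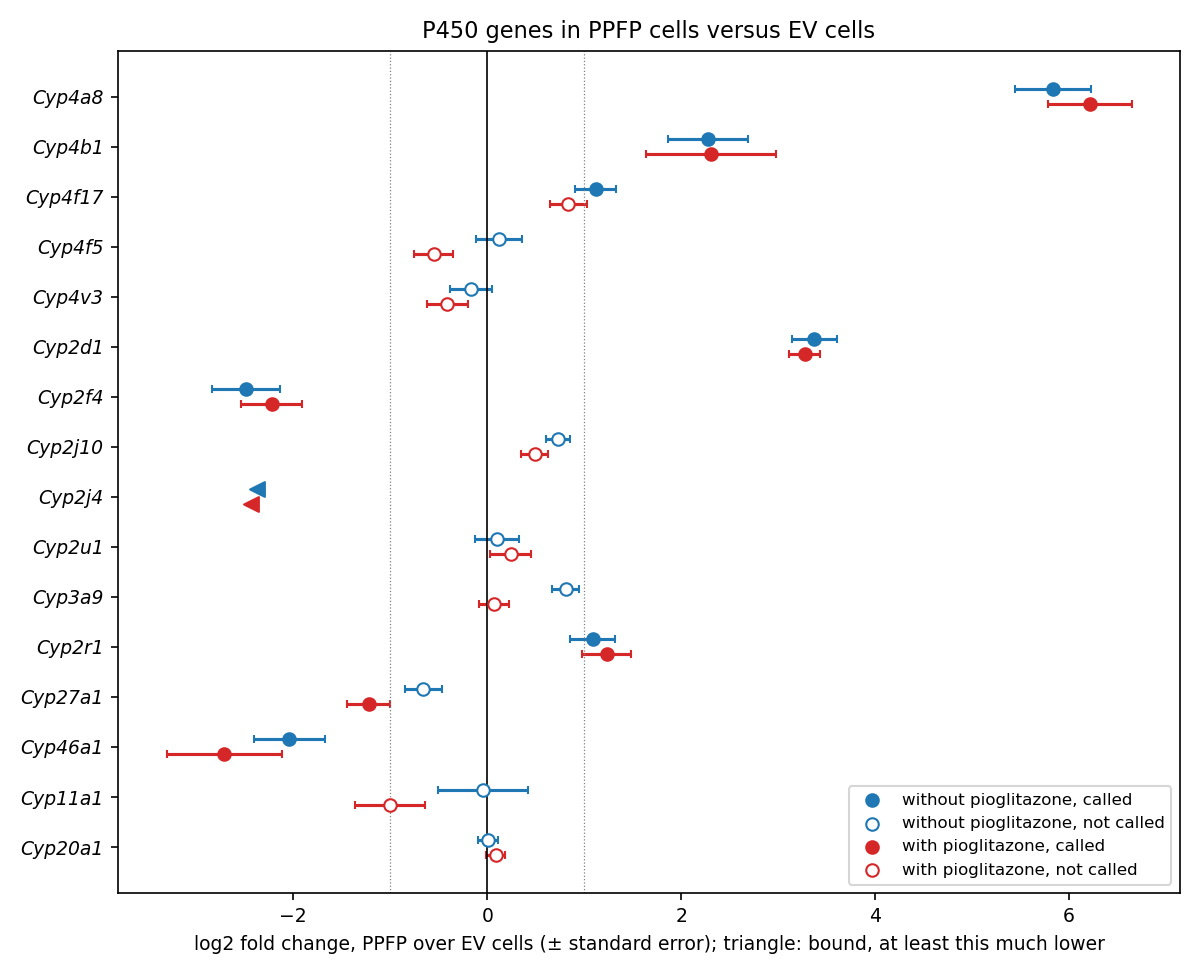
Log2 fold change of each described P450 gene in PPFP over EV cells, without pioglitazone in blue and with it in red, with standard errors. Filled points are called, dotted lines mark 2-fold, and triangles give the bound for Cyp2j4, which is at least 5.17-fold and 5.41-fold lower.

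The pioglitazone response of PPFP cells used the same PPFP libraries without pioglitazone as the comparison of the lines, so the results are not independent. Of 14 members tested, 0 were called, while 2.42% of 10064 genes were. An unadjusted p under 0.05 was reached by 5 members, against 28.8% of genes, and in 5 members the groups did not overlap, against 34.4%. The exact test of edgeR and DESeq2 also called 0. At any fold change 2 members passed the adjusted limit in the quasi-likelihood test, against 14.8% of genes, and 3 in the exact test and in DESeq2. Libraries with the same number deviated together within each line, with correlations of 0.593 to 0.852 in PPFP cells, although the highest correlation between differently numbered PPFP libraries was 0.682. With the replicate number as a block, 11 of the 14 members passed at any fold change (4 higher, 7 lower), against 51.6% of all genes (27.7% higher, 23.9% lower), and still 0 passed 2-fold, against 3.2%. Values in the next sentences come first from the unpaired test and then from the block.

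Cyp3a9 fell with pioglitazone in PPFP cells from 18.5, 18.2 and 21.9 CPM to 12.5, 10.9 and 10.7 CPM, without overlap. The log2 fold change was -0.77 ± 0.11 (SE, adjusted p = 0.00618, and 2.17e-08 with the block). The EV libraries with pioglitazone were at 8.93 to 12.3 CPM, so that 2 of the PPFP libraries with it lay within their range and the first lay above it. Cyp2d1 fell from 8.98, 10.2 and 9.89 CPM to 6.82, 7.50 and 6.91 CPM, a log2 fold change of -0.44 (adjusted p = 0.0328, and 0.000265 with the block). Without pairing, the adjusted p was above 0.05 in 5 of the 6 fits that left out 1 library, at up to 0.131. Cyp27a1 went from 14.7, 18.8 and 17.8 CPM to 9.39, 12.5 and 12.6 CPM (log2 fold change -0.56, adjusted p = 0.0646, and 7.74e-07 with the block). Cyp4f5 went from 5.44, 9.52 and 10.4 CPM to 3.52, 5.52 and 5.71 CPM, where the first library was the lowest of each group. Its log2 fold change was -0.76 (adjusted p = 0.15, and 9.63e-07 with the block), or -1.02 (adjusted p = 0.0308) in the unpaired test without the first library without pioglitazone. Cyp4f17 went from 44.1 ± 12.2 to 34.2 ± 8.43 CPM with overlapping libraries, a log2 fold change of -0.35 (adjusted p = 0.46, and 3.62e-06 with the block).

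Cyp4a8 and Cyp4b1 were on the other side, at 7.29 ± 1.93 and 10.2 ± 2.91 CPM for Cyp4a8 and 3.98 ± 1.19 and 5.64 ± 3.45 CPM for Cyp4b1. In the unpaired test neither passed (adjusted p = 0.32 and 0.60). With the block their log2 fold changes were 0.49 (adjusted p = 7.78e-05) for Cyp4a8 and 0.47 (adjusted p = 0.0156) for Cyp4b1. Cyp4b1 was lower with pioglitazone in the first pair, at 2.61 and 1.67 CPM, and higher in the other 2 pairs. The blocked test also passed Cyp2u1 (0.19) and Cyp20a1 (0.10) in the upward direction and Cyp2j10 (-0.22) and Cyp11a1 (-0.80) in the downward one, with adjusted p between 0.0149 and 0.0404. Without pairing these 4 had adjusted p between 0.17 and 0.56. Cyp2f4, Cyp2r1 and Cyp4v3 did not pass in either test, with blocked log2 fold changes of 0.21, 0.11 and -0.08. Cyp2j4 and Cyp46a1 were too low in PPFP cells to be tested.

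**Figure D4:**
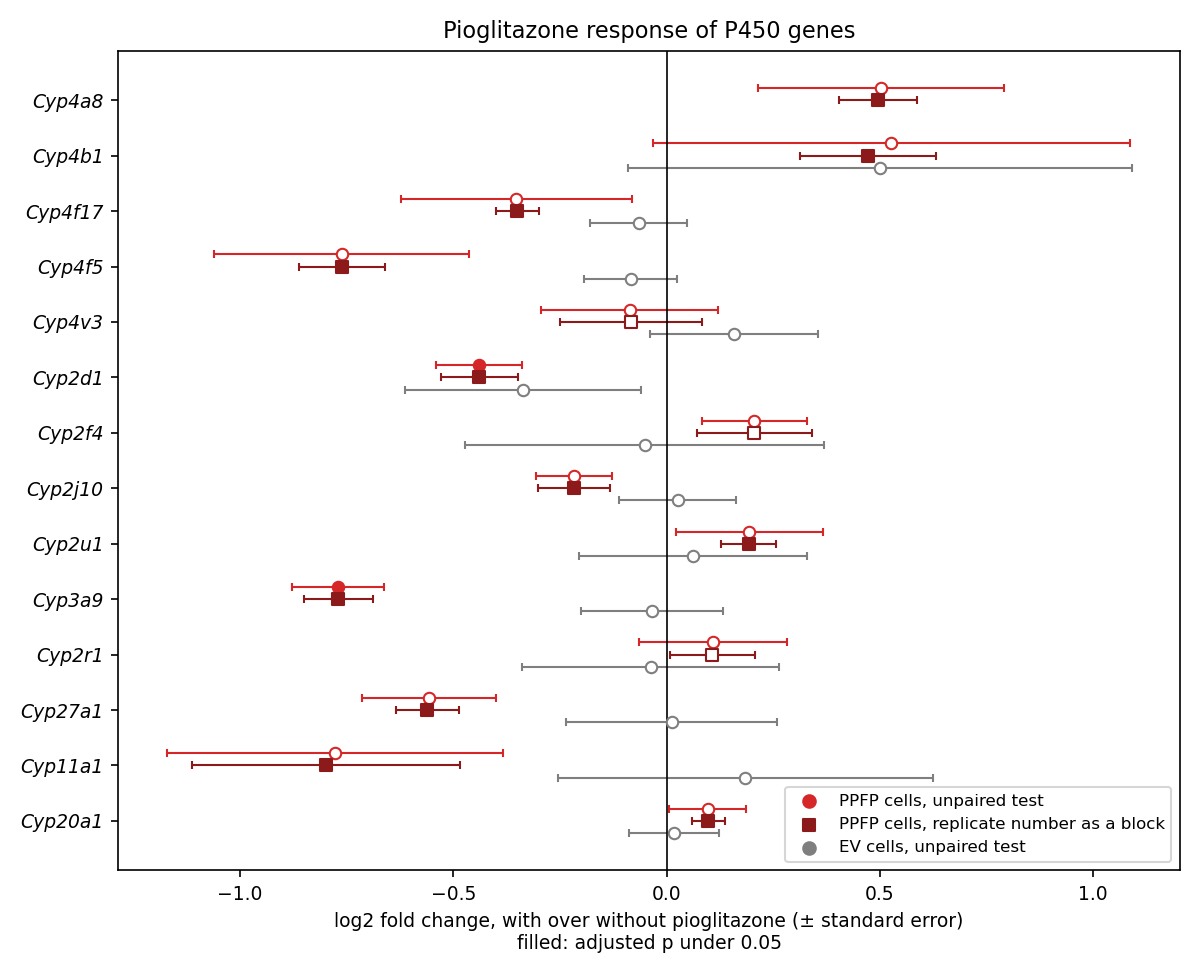
Log2 fold change of P450 genes with over without pioglitazone and its standard error, in PPFP cells without pairing (red circles), in PPFP cells with the replicate block (dark squares) and in EV cells without pairing (grey circles). Filled symbols have an adjusted p under 0.05, which in PPFP cells holds for 2 members without pairing and 11 with the block, and in EV cells for none; Cyp4a8 was not tested in EV cells.

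In EV cells, 0 of 15 members tested were called or reached an unadjusted p under 0.05, and 0% of 10146 genes were called, with 16 genes (0.158%) at an unadjusted p under 0.05. The exact test, DESeq2 and the replicate block also called 0 members, and with the block 0% of genes were called. The groups overlapped for every member tested, while they did not for 1.48% of genes. Log2 fold changes of the members lay between -0.34 (Cyp2d1) and 0.50 (Cyp4b1), and the largest standard error was 0.59. Cyp4a8, at 0.123 ± 0.0699 and 0.140 ± 0.0853 CPM, was too low to be tested. The difference between the responses of the lines was tested as an interaction. By this test 0 of 16 members were called, against 0.925% of 10482 genes, and 0 passed at any fold change, against 2.64%. Cyp3a9 was the 1 member with an unadjusted p under 0.05, which 13.3% of genes had. Its difference was -0.75 (standard error 0.20, adjusted p = 0.0886). With the replicate as a block within each line the adjusted p of Cyp3a9 was 0.000325, and Cyp27a1 (-0.58, adjusted p = 8.58e-05), Cyp4f5 (-0.69, adjusted p = 0.000654) and Cyp4f17 (-0.30, adjusted p = 0.00439) passed as well, all 4 with the lower response in PPFP cells. In that blocked test 34.3% of all genes passed, 17.1% with the lower response in PPFP cells.

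The partners and regulators of P450 enzymes were read from lists. In the electron transfer list 11 genes were tested. Without pioglitazone 0 of these were called, against 14.6% of all genes, and 5 (45.5%) passed at any fold change, against 45.2%, 4 of them higher and 1 lower in PPFP cells. With pioglitazone 2 (18.2%) were called, both higher, against 19.7% of all genes. Por, the reductase that serves all P450 enzymes of the endoplasmic reticulum, was at 396 ± 15.3 CPM in EV cells without pioglitazone and 397 ± 26.2 with it, and at 484 ± 19.4 and 817 ± 7.80 CPM in PPFP cells. Its log2 fold change between the lines with pioglitazone was 1.06 (adjusted p = 4.7e-05), and its response to pioglitazone in PPFP cells was 0.76 (adjusted p = 0.000413). The interaction for Por was 0.75 (adjusted p = 0.00206). In that response 6 of the 11 genes passed at any fold change, 3 higher and 3 lower, against 14.8% of all genes, and in the interaction 1 passed in each direction, against 2.64%. The one with the lower response in PPFP cells was Cyb5r1, a cytochrome b5 reductase gene, which was at 188 ± 29.9 CPM in PPFP cells without and 111 ± 6.81 CPM with pioglitazone (log2 fold change -0.74, adjusted p = 0.012, interaction -0.76, adjusted p = 0.0332). Cyb5b, the cytochrome b5 of the outer mitochondrial membrane, was at 176 ± 29.1 CPM in the EV libraries and 370 ± 7.02 CPM in the PPFP ones with pioglitazone (log2 fold change 1.09, adjusted p = 0.000468). In the list of heme synthesis and breakdown, Alas1 is not among the genes in the table. Alas2, with at most 2 counts in any library, was too low to be tested, so neither ALAS gene was read. Of the 11 genes tested from this list, 0 were called between the lines in either treatment, against the same 14.6% and 19.7% of all genes. At any fold change 3 (27.3%) passed without pioglitazone, 1 higher and 2 lower, against 45.2% of all genes, and 4 (36.4%) with it, 3 higher and 1 lower, against 52.7%. Of the 2 epoxide hydrolases tested, 0 were called between the lines without pioglitazone and 1 with it, against 14.6% and 19.7% of all genes. This was Ephx2, which hydrolyzes fatty acid epoxides, at 15.8 ± 3.26 CPM in the EV libraries and 32.3 ± 2.65 CPM in the PPFP ones with pioglitazone (log2 fold change 1.05, adjusted p = 0.00107). Ephx1, the other, was at 552.6 ± 20.2 and 510.3 ± 27.7 CPM without pioglitazone (log2 fold change -0.11). With it, Ephx1 was at 575.8 ± 50.1 and 681.5 ± 15.0 CPM (log2 fold change 0.26).

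Of 28 listed regulators of P450 genes 18 were tested, and without pioglitazone 5 were called higher and 3 lower in PPFP cells, against 7.27% and 7.31% of all genes. The corresponding counts with pioglitazone were 6 and 3, against 9.3% and 10.4%. Cebpa, a liver and fat transcription factor, was at 18.6 ± 0.504 CPM in the EV libraries and 50.2 ± 3.52 CPM in the PPFP ones without pioglitazone (log2 fold change 1.44, adjusted p = 2.31e-05). With pioglitazone it was at 16.4 ± 3.16 and 94.3 ± 12.8 CPM, and its interaction of 1.08 was called (adjusted p = 0.0136). Esr1, the estrogen receptor alpha gene, had at most 2 counts in any EV library and was at 9.25 ± 2.76 CPM in PPFP cells without pioglitazone, at least 92.0-fold higher. Among the retinoid X receptors, which pair with PXR, CAR, LXR, VDR and the PPARs, Rxrg rose from 0.111 ± 0.0965 to 3.15 ± 0.491 CPM (adjusted p = 0.000278) and Rxra fell from 20.8 ± 1.38 to 9.11 ± 0.899 CPM (adjusted p = 0.000213). Vdr, the vitamin D receptor gene, fell from 10.5 ± 1.5 to 4.61 ± 1.43 CPM (adjusted p = 0.00548), and Nr5a1, a regulator of steroid synthesis, from 1.33 ± 0.458 to 0.579 ± 0.146 CPM (adjusted p = 0.0266). Nr1h3, the LXR alpha gene, was the 1 regulator of 18 called in the pioglitazone response of PPFP cells, where 2.42% of all genes were, and went from 5.31 ± 1.33 to 13.3 ± 3.86 CPM (adjusted p = 0.0265). Ahr was at 0 counts in every library, and Hnf4a and Nr1i2 had at most 2 counts in any library. Nr1i3 was detected in every group. It was at 2.38 ± 0.199 CPM in EV and 1.70 ± 0.184 CPM in PPFP cells without pioglitazone (adjusted p = 0.0733). With pioglitazone Nr1i3 was at 2.30 ± 0.254 and 2.10 ± 0.0502 CPM (adjusted p = 0.603). Of the AHR targets outside the P450 family 2 were tested, and 1 was called in each treatment, against 14.6% and 19.7% of all genes. This was Ugt1a6, lower in PPFP cells, at 7.36 ± 1.47 against 3.10 ± 0.522 CPM without pioglitazone (log2 fold change -1.24, adjusted p = 0.00253) and at 7.22 ± 0.854 against 2.11 ± 0.442 CPM with it (log2 fold change -1.76, adjusted p = 0.000365). Nqo1, the other, passed in neither treatment. It was at 6.09 ± 2.44 CPM in EV and 6.44 ± 1.93 CPM in PPFP cells without pioglitazone (log2 fold change 0.08). With it, Nqo1 was at 6.38 ± 3.20 and 3.99 ± 0.956 CPM (log2 fold change -0.665).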

How the data were processed

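RNA was measured in 12 libraries, 3 for each of 4 groups. Per the study's methods and the submitters' processing notes, paired-end reads were aligned to rn4 with TopHat2 2.0.11 and counted with HTSeq 0.6.1p1 in the intersection-strict mode; the strand setting is not given in the sources used here. The authors deposited these raw counts per gene symbol, without normalization or pooling. Each experiment was done 3 times independently, and the libraries of 1 experiment, EV and PPFP alike, shared their sequencing lanes, per the study's methods. The labels do not say that a replicate number marks an experiment.

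Tests were run with edgeR 4.0.16 in R 4.3.3 (filterByExpr, TMM, quasi-likelihood test, Benjamini-Hochberg adjustment over all genes tested) on the 6 libraries compared, and the interaction on all 12. Adjusted p values are those of this test except where a different one is given. Called means an adjusted p under 0.05 and over 2-fold. The standard error is the log2 fold change divided by the root of F. A group with at most 3 counts in every library was at the floor. DESeq2 1.42.0 was an alternative, with the exact test, other scalings and filters, the replicate block and each library left out. Pairing was checked from correlations of deviations from group means.

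The members and lists were chosen with earlier results of these data known. Members called in at least 1 comparison are given in full, and in each list at most 3 called genes per direction, by smallest adjusted p. The ChIP peak lists were not used here, and 1 gene of the thyroid marker list, as first written, is not reported here. Promoters were read in Python 3.11.15.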

Additional observations from a re-analysis of the deposited data

Results flagged for a closer look

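The response of Cyp4v3 to pioglitazone had opposite signs in the lines. It was between -0.212 and -0.00222 on the log2 scale in the pairs of PPFP libraries and between 0.0844 and 0.245 in the pairs of EV libraries. The interaction was -0.256 (standard error 0.288, adjusted p = 0.844), so the difference did not pass the test.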

How the results depend on the processing

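The number of members called was 5 instead of 8 in both comparisons of the cell lines when 10 counts were required in every compared library, because Cyp2j4, Cyp46a1 and Cyp4a8 then fell out of the test. With this filter 13 members were tested without pioglitazone and 12 with it. Calls over all genes fell as well, from 1496 of 10264 to 983 of 9550 without pioglitazone and from 2026 of 10291 to 1407 of 9498 with it. Leaving out 1 library at a time gave 7 to 8 called members without pioglitazone, 7 to 9 with it and 0 to 1 in the pioglitazone response of PPFP cells, where the 1 was Cyp4f5. Over all genes these fits called 1468 to 1662, 1967 to 2241 and 160 to 296 genes. The next sentence is again about members. In EV cells and for the interaction it gave 0. Scaling by library size alone lowered the median log2 fold change of all genes with pioglitazone to -0.125, moved the summed P450 level of PPFP cells with pioglitazone from 249 to 238 CPM, and called 9 members with pioglitazone, as did the exact test, in both cases through Cyp11a1. With the replicate block 8 members were called in each comparison of the lines, where same-numbered libraries did not deviate together in every pair (correlations of -0.398 to 0.417 and -0.475 to 0.326) although the libraries of an experiment shared lanes, and 11 members passed at any fold change in the pioglitazone response of PPFP cells. No member passed 2-fold in that response, in EV cells or in the interaction under the block. For the 29 pairs of gene and comparison with an unadjusted p under 0.05, a choice made after the data were seen, 404 alternative values were computed: 366 kept their direction and side of the limit, 19 lost the limit, 19 gained it and 0 changed direction. Cyp27a1 without pioglitazone had an adjusted p of up to 0.0711, and Cyp2j10 with pioglitazone of up to 0.0818, and 0.0577 with the block. A count of PPFP peaks near P450 genes, and its limit on fold enrichment, were not run. Depth limits Cyp2j4, Cyp46a1, Cyp11a1 and Cyp4a8 most, since 1 of their groups or more held under 20 counts a library.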
